A study of Homo sapiens with 6 samples.

Results

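Classical cadherins are single-pass membrane proteins that bind a cadherin of the same kind on the neighbouring cell in the presence of calcium. Their cytoplasmic tails hold beta-catenin and p120 catenin, and alpha-catenin links that complex to actin at adherens junctions. EPCAM, an adhesion protein of epithelia, is no cadherin, and it is known to weaken or modulate cadherin contacts and to be cut by membrane proteases. Epithelia are known for CDH1 and EPCAM, and mesenchymal and neural cells for CDH2 and CDH11.

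The values below describe 10 genes out of 20169 in the count table, namely CDH1, CDH2, CDH3, CDH4, CDH6, CDH10, CDH11, CDH13, CDH24 and EPCAM. They were found by their Ensembl identifiers, through the symbols of GENCODE 29, and they were chosen with their CAG and PGK levels in these libraries already known. Their differences between the lines are therefore given as a description, with no p-value, and their calls are printed only beside the share of all genes called. CDH13 is grouped with the classical cadherins here, but it lacks their transmembrane segment and tail and is held in the membrane by a lipid anchor.

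RNA-seq of polyadenylated RNA was made from HEK293T cells, an adherent human line of embryonic kidney origin that carries the viral large T antigen. Each line holds a landing pad, a site built into the genome to receive a reporter, in a genotype labelled CAG landing pad (3 libraries) or PGK landing pad (3 libraries). CAG joins a viral enhancer to an actin promoter, and PGK is the promoter of a glycolytic gene. All cells grew in the same serum-containing medium with antibiotics and were scraped off before reaching confluence, and no further treatment is labelled. The series calls the lines monoclonal and the labels name a single line per promoter, so a difference between promoters and a difference between clones cannot be told apart. Whether the 3 libraries per line stem from independent cultures is not stated in the labels, and p-values then measure only the spread between these libraries, which may be technical.

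Total counts ran between 22450538 and 23442542 in CAG libraries and between 21896246 and 22889708 in PGK libraries. Levels are given as CPM, read counts relative to a library size scaled by the TMM method, and 3 counts, used as the floor, equal 0.126 to 0.140 CPM. Among markers of kidney lineage, 4 of 6 were matched, and their summed level was 35.8 to 41.7 CPM in CAG and 57.9 to 60.3 CPM in PGK libraries. PAX2, a regulator of kidney development, lay at 1.11 to 1.55 CPM in CAG and 1.12 to 2.05 CPM in PGK libraries. PAX8, of the same family, had 1 count in CAG and 0 in PGK. SIX2, a factor of kidney progenitors, averaged 30.4 ± 2.35 CPM in CAG and 47.1 ± 1.39 CPM in PGK (SD, n = 3 each), and WT1, a zinc finger factor of developing kidney, averaged 6.72 ± 1.02 CPM in CAG and 10.5 ± 0.336 CPM in PGK (SD, n = 3 each). Both were called lower in CAG, with a Benjamini-Hochberg adjusted p in edgeR of 9.60e-08 for SIX2 and 3.52e-05 for WT1. The part of these markers in the results below was not tested. The 4 endothelial markers matched summed to 0.336 to 0.621 CPM in CAG and 0.307 to 0.466 CPM in PGK libraries. The 5 leukocyte markers summed to 2.16 to 3.10 CPM in CAG and 2.72 to 3.55 CPM in PGK, with CD3E at 0 counts in all libraries and PTPRC at 0 counts in CAG and 1 in PGK.

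CDH2 was by far the most abundant of the genes with a CDH symbol in both lines. Counts divided by the exon length of each gene and scaled to the same sum in each library, a TPM value, allow genes to be set beside each other. On that scale CDH2 had 98.2 to 101 TPM in CAG and 75.7 to 90.3 TPM in PGK libraries, and the next CDH gene, CDH24, averaged 12.4 TPM in CAG and 18.8 TPM in PGK. Over all 23 genes with a CDH symbol, CDH2 held 80.8% to 81.8% of the summed TPM in CAG libraries and 74.1% to 76.0% in PGK libraries. CDH12, not among the 10 chosen genes, came directly after CDH24 in both lines, at 4.26 TPM in CAG and 1.71 TPM in PGK. The desmosomal cadherin DSG2, which has no CDH symbol, stood above CDH2, at 177 TPM in CAG and 158 TPM in PGK. Within the 10 chosen genes the third place differed between the lines. It went to CDH1 in CAG, at 3.04 TPM, and to CDH11 in PGK, at 1.13 TPM. In CAG the order went on with EPCAM at 1.72, CDH10 at 0.639, CDH3 at 0.267, CDH4 at 0.0911 and CDH11 at 0.0247 TPM. The ranges over libraries of neighbours in this order did not overlap down to CDH4, while CDH11 overlapped CDH13. In PGK the order went on with CDH10 at 1.04, CDH1 at 0.709, CDH4 at 0.282, CDH3 at 0.189 and EPCAM at 0.0440 TPM. There the ranges of CDH11 and CDH10 overlapped, as did those of CDH4 and CDH3.

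CDH1, or E-cadherin, the main cadherin of epithelia, was low in both lines and higher in CAG. Its level was 4.52, 4.79 and 5.16 CPM in CAG libraries 1 to 3, against 1.21, 1.21 and 1.1 CPM in PGK libraries 1 to 3. The lowest CAG library lay well above the highest PGK library. The mean was 4.82 ± 0.320 CPM in CAG and 1.17 ± 0.0675 CPM in PGK (SD, n = 3 each), a log2 fold change of CAG over PGK of 2.04 (SE 0.16), or 4.10-fold. These are 338 counts in CAG and 78 in PGK. In RNA from whole cultures, fewer cells with a transcript and less of it per cell cannot be told apart, here or for the genes below. Per length, CDH1 amounted to 2.76% to 3.35% of CDH2 in CAG libraries and to 0.787% to 0.951% in PGK libraries.

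CDH2, or N-cadherin, the cadherin of neural and mesenchymal cells, differed little. It stood at 132, 127 and 123 CPM in the CAG libraries and at 102, 120 and 111 CPM in the PGK libraries. All CAG libraries lay above all PGK libraries, by a narrow margin at the closest pair. The means of 127 ± 4.12 CPM in CAG and 111 ± 8.79 CPM in PGK (SD, n = 3 each) gave a log2 fold change of 0.20 (SE 0.06). Its sign was the same in all alternative settings, where the log2 fold change ran between 0.14 and 0.25.

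The other 2 type I cadherins, CDH3 and CDH4, were close to the limit of detection. CDH3, or P-cadherin of placenta and basal epithelium, had 10, 11 and 9 counts in CAG and 9, 5 and 7 counts in PGK. Its CPM values overlapped between the lines. CDH4, or R-cadherin, first known from retina, had 7, 3 and 2 counts in CAG and 8, 17 and 12 counts in PGK. Its CPM values did not overlap, at 0.0839 to 0.310 in CAG and 0.373 to 0.764 in PGK. The CAG to PGK ratio of CDH4 was 0.308, with a 95% exact counting interval of 0.146 to 0.605. Its log2 fold change without a low-count filter was -1.67 (SE 0.50), and -2.34 without CAG replicate 1. Such intervals pool the 3 libraries of a line and leave out the spread between them. Like the floors, they describe the error of counting alone, and they make no allowance for PCR copies of a molecule counted as separate reads.

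Among the type II cadherins, CDH11 had the largest log2 fold change in size among the 10 genes when all libraries were used. CDH11, or OB-cadherin of osteoblasts and mesenchyme, had 0, 3 and 3 counts in CAG libraries, against 70, 97 and 104 counts in PGK libraries. The CAG libraries were at or below the floor and the PGK libraries at 3.26, 4.36 and 4.56 CPM. The PGK to CAG ratio was 47.5 (counting interval 21.5 to 131), and the log2 fold change of CAG over PGK was -5.48 (SE 0.36). CDH11 overlaps an unnamed gene model on its own strand, so its counts may be incomplete. CDH24, a type II cadherin that binds catenins, was second to CDH2 among the CDH genes. It had 12.3, 10.8 and 12.8 CPM in CAG and 18.7, 20.3 and 17.7 CPM in PGK, with no overlap. Its means were 12.0 ± 1.02 CPM in CAG and 18.9 ± 1.32 CPM in PGK (SD, n = 3 each), a log2 fold change of -0.65 (SE 0.08). CDH10, a cadherin best known from brain, had 0.843, 0.508 and 0.461 CPM in CAG and 1.07, 1.17 and 0.832 CPM in PGK. CAG replicate 1 reached above PGK replicate 3, so the lines overlapped, and the log2 fold change was -0.76 (SE 0.29). CDH6, known as a cadherin of fetal kidney, had 0 counts in all 6 libraries, which allows up to 3 counts in each.

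CDH13, the lipid-anchored cadherin, had 1 count in all, in CAG replicate 3, and no fold is given. EPCAM was found in every CAG library and almost absent in PGK. It had 26, 22 and 30 counts in CAG, or 1.15, 0.932 and 1.26 CPM, against 0, 0 and 2 counts in PGK. Its counts stood at a CAG to PGK ratio of 37.1 (counting interval 9.93 to 312), and the log2 fold change was 4.98 (SE 0.57). Both PGK counts came from PGK replicate 3. Without that library PGK held 0 counts, and the CAG mean was at least 8.11-fold higher than the floor of 3 counts per library.

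**Figure D1:**
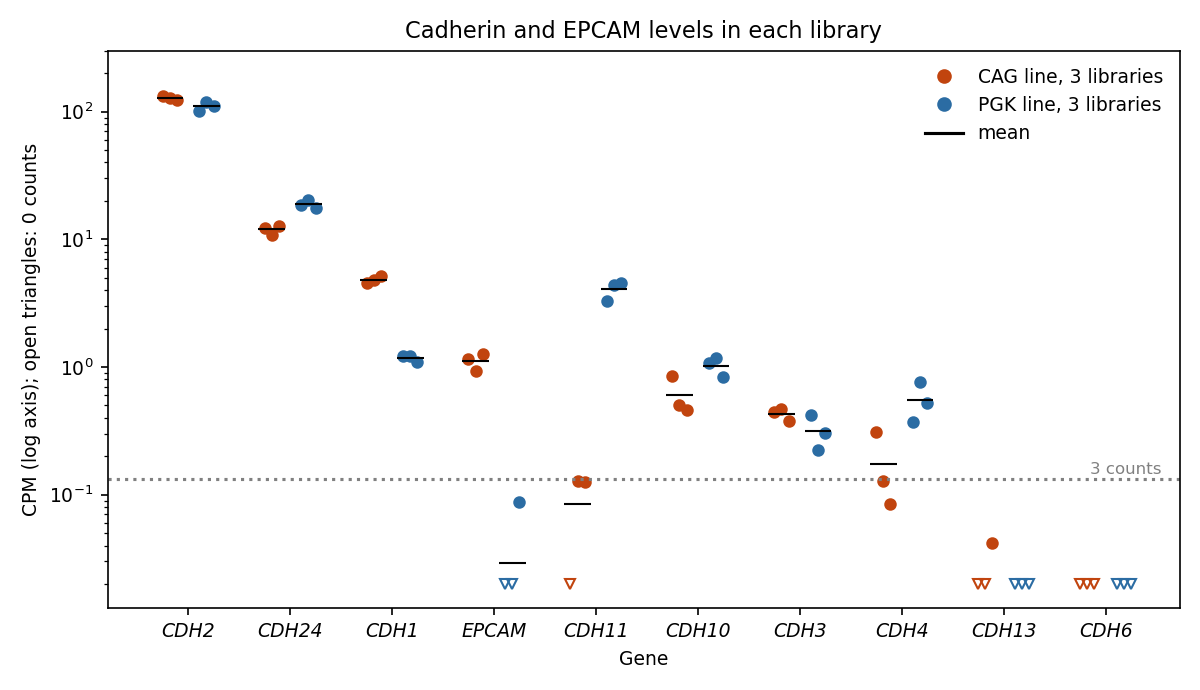
Level of each gene in CPM on a log axis, with 1 point per library (CAG left, PGK right), a bar at the mean of 3 libraries, open triangles at the bottom for libraries with 0 counts and a dotted line at 3 counts. CDH2 stands near 100 CPM in both lines, CDH1 and EPCAM are higher in CAG, and CDH11, CDH24 and CDH4 are lower in CAG; the mean of CDH13 is too low to be drawn.

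The lines differed at many genes, and this sets the frame for the counts. By the quasi-likelihood test of edgeR, with p-values adjusted after Benjamini and Hochberg, 8125 of 13103 tested genes (62.0%) were called at an adjusted p under 0.05. Of the tested genes 31.6% were called higher and 30.4% lower in CAG. Of the 10 genes, 6 passed the low-count filter, EPCAM through its CAG libraries and CDH11 through its PGK libraries alone, and all 6 were called, 3 higher (CDH1, CDH2 and EPCAM) and 3 lower (CDH11, CDH24 and CDH10). Since the genes were chosen on this contrast, nothing is read from that share. CDH10 was not called with DESeq2 or without PGK replicate 2, which left 5 calls in each case, and CDH4 was added without a low-count filter or without CAG replicate 1, which gave 7. CDH3, CDH4, CDH6 and CDH13 did not pass the filter. Among the 6 tested genes 5 had no overlap between the lines, beside 65.5% of all tested genes. Of the 6, CDH1, CDH11 and EPCAM were at least 4-fold apart, as were 2.32% of all tested genes.

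Each of the 6 tested genes stood in a chromosome neighbourhood with a median near 0. Neighbourhoods were taken as the 25 tested genes on each side in the order of GENCODE 29. The median log2 fold change was 0.00 around CDH1 and CDH11, -0.03 around CDH2, -0.07 around CDH24, -0.11 around CDH10 and -0.13 around EPCAM. Around EPCAM 26 of 50 neighbours were called lower and 4 higher, beside 30.4% lower and 31.6% higher of all tested genes. The nearest tested neighbours of CDH1 were ZFP90, at -0.02 (SE 0.08), and TANGO6, at -0.11 (SE 0.07). CDH3 lies between ZFP90 and CDH1, and it shares CDH1's orientation. CDH11 lies between GOT2, at -0.16 (SE 0.04), and TK2, at 0.58 (SE 0.10). The nearest tested gene before EPCAM was CALM2, at -0.03 (SE 0.04). The neighbours of CDH24 were PSMB5, at -0.13 (SE 0.05), and ACIN1, at 0.08 (SE 0.05). CDH2 lies between CHST9, at 1.22 (SE 0.22), and DSC3, a desmosomal cadherin, at -0.63 (SE 0.06). CDH10 lies between CDH12, at 1.26 (SE 0.14), and DROSHA, at 0.01 (SE 0.05). The nearest tested neighbours of CDH4 were CDH26 and TAF4, those of CDH6 were CDH10 and DROSHA, and those of CDH13 were MPHOSPH6 and HSBP1.

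**Figure D2:**
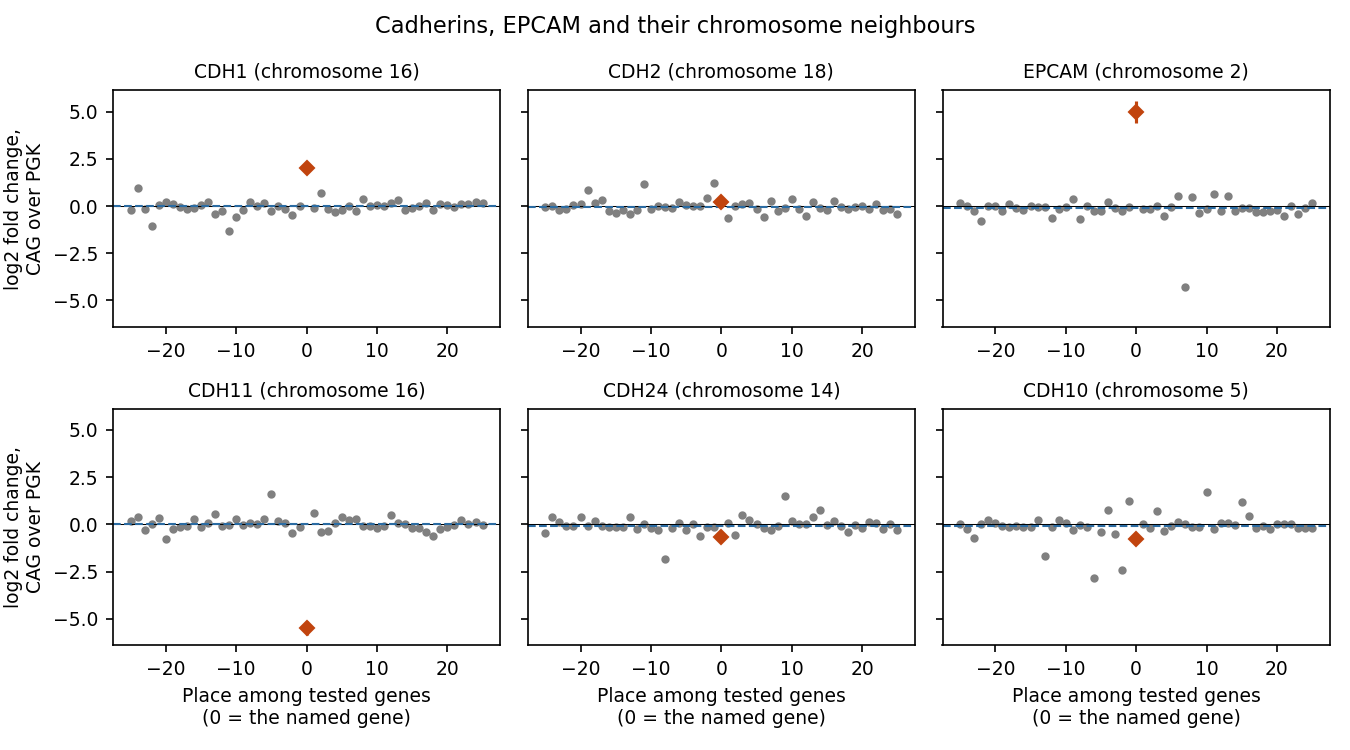
The log2 fold change of CAG over PGK for 6 genes (diamond, with its SE) and for the 25 tested genes on each side (grey points), by place along the chromosome, with a dashed line at the neighbours' median. CDH1, CDH11 and EPCAM stand away from their neighbours, while CDH2, CDH24 and CDH10 lie within their range.

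Cadherin genes on chromosomes 5, 16 and 18 did not share a direction. Of the 23 CDH genes, 8 lie on chromosome 16, among them CDH1 at 2.04 and CDH11 at -5.48 on the log2 scale. CDH15, the muscle cadherin on the same chromosome, was tested and not called, at 0.11 (SE 0.37). CDH5, CDH8, CDH13 and CDH16 each had at most 14 counts in either line. On chromosome 5, CDH12 and CDH10 are adjacent among tested genes and had opposite signs. On chromosome 18, CDH2 differed little while CDH7 was far lower in CAG. CDH19 and CDH20 had 0 counts in all libraries. On chromosome 20 the log2 fold changes of CDH22 (-0.48), CDH26 (-0.51) and CDH4 (-1.67) were all negative, with CDH26 tested and not called and the other 2 under the low-count filter. CDH22 had 12 counts in CAG and 16 in PGK. Its CAG to PGK ratio of 0.713 has a counting interval of 0.308 to 1.61, so its sign is not established.

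Changes written below as a rise or a fall by a value are log2 fold changes of CAG over PGK. Outside the chosen genes, the other cadherins with a CDH symbol went in both directions. Of these 14 genes 5 were tested, with 1 called higher and 2 lower, and a median log2 fold change of -0.51 beside 0.00 for all tested genes. The share called over all tested genes was 62.0%, with 31.6% higher and 30.4% lower. CDH7, a type II cadherin of neural crest and brain, had 0.133, 0.254 and 0.210 CPM in CAG, against 2.79, 3.24 and 3.29 CPM in PGK. No CAG library came near the PGK libraries, and the log2 fold change was -3.92 (SE 0.27). CDH12, another brain cadherin, had 6.43, 7.16 and 5.92 CPM in CAG and 2.24, 3.06 and 2.85 CPM in PGK. CDH23, a long cadherin of inner ear hair cells, was lower in CAG at 2.24 ± 0.382 CPM, against 4.74 ± 0.179 CPM in PGK (SD, n = 3 each), and it overlaps C10orf105 on the other strand. The edgeR test gave a Benjamini-Hochberg adjusted p of 5.74e-10 for CDH7, 3.21e-07 for CDH12 and 5.05e-06 for CDH23. CDH7 passed the low-count filter through its PGK libraries alone, so its direction was set by the filter and nothing is read from its p-value. Leaving out CAG replicate 2 or PGK replicate 1 gave 5 calls in place of 3, with CDH18 and CDH26 added on the lower side. CDH17, a cadherin of intestine, had 0 counts in CAG and 4 in PGK, all in PGK replicate 1.

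**Figure D3:**
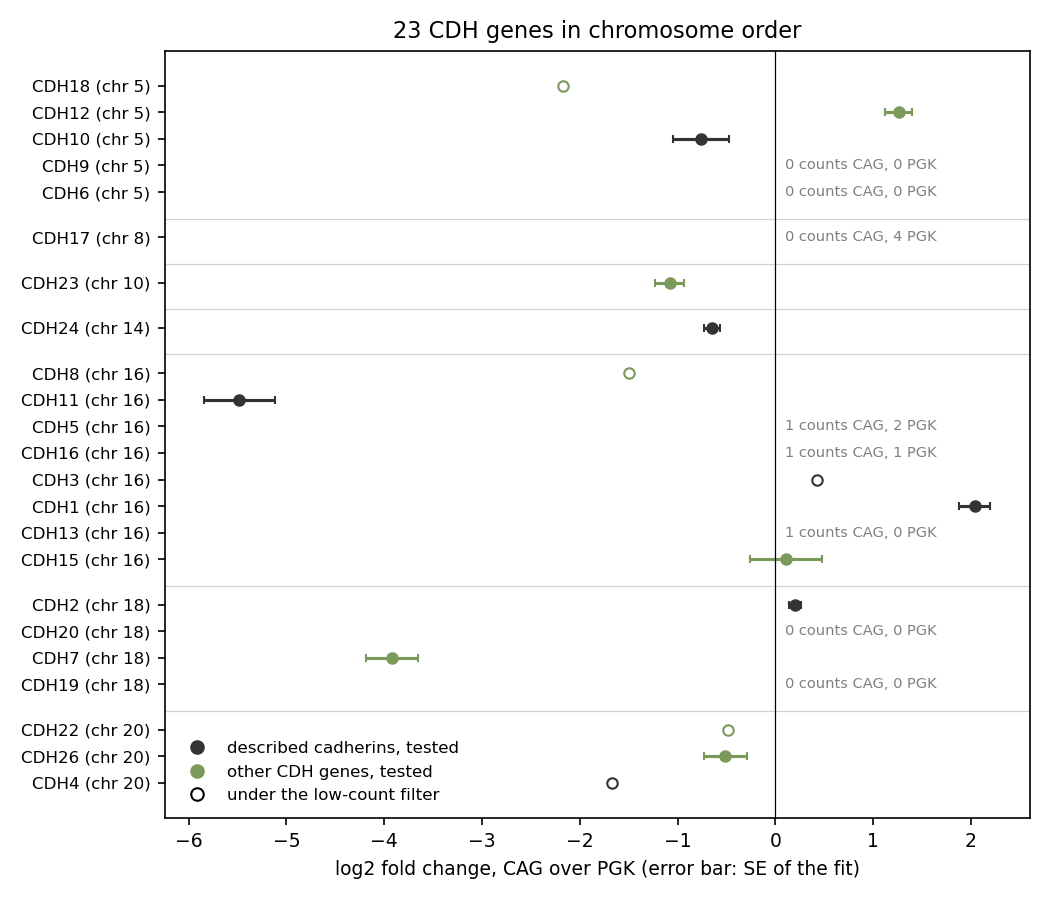
The log2 fold change of CAG over PGK (x axis) for 23 CDH genes in chromosome order, with the SE of the fit for tested genes and open points for genes under the low-count filter; where neither line has more than 9 counts the counts are written out. Chromosome 16 holds both CDH1, at 2.04, and CDH11, at -5.48.

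The tested catenins, partners of cadherin tails, stood well above the floor and changed by modest amounts. CTNNA2, CTNNA3 and CTNND2 did not pass the low-count filter. Of 9 genes 6 were tested and all 6 were called, 4 higher and 2 lower, with a median of 0.18. This stands beside 62.0% of all tested genes called, 31.6% higher and 30.4% lower. CTNNB1, or beta-catenin, which binds cadherin tails and also carries Wnt signals, had 738, 747 and 754 CPM in CAG and 500, 530 and 512 CPM in PGK. The lines were apart with little spread inside each, and the log2 fold change was 0.54 (SE 0.04). JUP, or plakoglobin, fell by 0.32 (SE 0.05), and CTNND1, or p120 catenin, fell by 0.17 (SE 0.05). CTNND1 overlaps 2 read-through or neighbouring gene models on the same strand, so its value is uncertain. The Benjamini-Hochberg adjusted p of the edgeR test was 6.46e-09 for CTNNB1, 2.16e-05 for JUP and 0.00272 for CTNND1.

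Linkers to actin went both ways. All 15 were tested, with 5 called higher and 7 lower and a median of -0.07, beside 31.6% higher and 30.4% lower of all tested genes. SORBS2, an adaptor of actin structures, had 73, 82 and 68 counts in CAG, against 0, 1 and 0 counts in PGK. This is a CAG to PGK ratio of 212 (counting interval 37.7 to 8410). The only PGK count lay in PGK replicate 2, and without that library the fitted log2 fold change was 9.19 in place of 7.28. SORBS2 passed the low-count filter through its CAG libraries alone, so its direction was set by the filter and nothing is read from its p-value. It overlaps a processed pseudogene on its own strand and antisense genes on the other. PLEKHA7, a partner of p120 catenin, rose by 0.93 (SE 0.08), while AJUBA, a LIM protein recruited by alpha-catenin, fell by 0.63 (SE 0.07), and LPP, another LIM protein, fell by 0.46 (SE 0.07). AJUBA shares exons with another gene model on its strand and is uncertain. The edgeR test gave a Benjamini-Hochberg adjusted p of 1.27e-10 for SORBS2, 9.15e-09 for PLEKHA7, 1.31e-07 for AJUBA and 1.17e-05 for LPP.

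Nectins, desmosomes and tight junctions showed no shared direction. Their calls stand beside 31.6% higher and 30.4% lower of all tested genes. Of 5 nectin genes 4 were tested, with 3 called higher and 1 lower and a median of 0.26. PVR, the poliovirus receptor of this family, rose by 0.83 (SE 0.05) and NECTIN2 by 0.35 (SE 0.05), while NECTIN1 fell by 0.39 (SE 0.06). Of 11 desmosome genes 5 were tested, with 1 higher and 1 lower and a median of 0.07, and 5 had 0 counts throughout. The plaque protein PKP2 rose by 0.46 (SE 0.07) and the desmosomal cadherin DSC3 fell by 0.63 (SE 0.06). Of 28 tight junction genes 15 were tested, with 4 higher and 3 lower and a median of 0.08. TJP3, a scaffold of tight junctions, had 1.42, 1.19 and 1.01 CPM in CAG and 0.140, 0.270 and 0.263 CPM in PGK, so the lines did not overlap. OCLN, or occludin, rose by 0.57 (SE 0.07), CLDN23 fell by 1.12 (SE 0.29) and CLDN12 fell by 0.25 (SE 0.05). TJP3 passed the low-count filter through its CAG libraries alone and CLDN23 through its PGK libraries. The filter therefore bears on their direction, and nothing is read from their p-values. CLDN1, among the 4 tight junction genes called higher, had 50 counts in CAG and 17 in PGK. It also passed through its CAG libraries alone. CLDN12 shares exons with other gene models on its strand and is uncertain, as is PVR. For these 9 genes, CLDN1 aside, the edgeR quasi-likelihood p, Benjamini-Hochberg adjusted, ran between 1.53e-10 for PVR and 0.0022 for CLDN23.

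Large and unclustered members of the cadherin superfamily had called genes in both directions. Of 28 matched 21 were tested, with 11 higher and 6 lower and a median of 0.16, beside 31.6% higher and 30.4% lower of all tested genes. PCDH20 was not analysed here. DCHS1, a giant cadherin of planar polarity, had 5.99, 6.74 and 7.01 CPM in CAG and 1.49, 2.25 and 2.10 CPM in PGK. CLSTN2, a synaptic calsyntenin, averaged 1.47 ± 0.199 CPM in CAG and 0.377 ± 0.116 CPM in PGK (SD, n = 3 each). CLSTN2 passed the low-count filter through its CAG libraries, so the filter bears on its direction and nothing is read from its p-value. PCDH8, among the 6 called lower, had 23 counts in CAG and 48 in PGK. It passed through its PGK libraries alone. PCDH19, a protocadherin of neurons, was lower in CAG, at 2.0, 2.63 and 2.85 CPM, against 8.29, 10.2 and 8.63 CPM in PGK. PCDH1, a protocadherin of airway epithelium, fell by 0.58 (SE 0.15). The Benjamini-Hochberg adjusted p of the edgeR test was 1.18e-08 for DCHS1, 1.05e-05 for CLSTN2, 1.57e-09 for PCDH19 and 0.00271 for PCDH1.

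Factors known to repress CDH1 all passed the low-count filter, and the called ones went in both directions. SNAI1 and SNAI3 averaged under 1 CPM in each line. All 9 were tested, with 3 called higher and 2 lower and a median of -0.02, beside 31.6% higher and 30.4% lower of all tested genes. Summed over the list, the level was 315 to 318 CPM in CAG libraries and 391 to 415 CPM in PGK libraries. That sum is weighted most by TCF3, the most abundant of the 9, at 158 CPM in CAG and 225 CPM in PGK. SNAI2, or Slug, a zinc finger repressor, had 27.1, 28.9 and 26.7 CPM in CAG and 50.7, 60.5 and 58.7 CPM in PGK. The lines did not overlap, and the log2 fold change was -1.04 (SE 0.07). TCF3, a helix-loop-helix factor, fell by 0.51 (SE 0.05), while ZEB2 rose by 0.30 (SE 0.07) and TCF4 by 0.21 (SE 0.06). SNAI3, chosen after its value was seen, rose by 1.29 (SE 0.38) from a low level, or by 1.95 without PGK replicate 3. SNAI3 passed the low-count filter through its CAG libraries, so the filter bears on its direction and nothing is read from its p-value. The edgeR test gave a Benjamini-Hochberg adjusted p of 3.50e-10 for SNAI2, 6.47e-08 for TCF3, 0.00174 for ZEB2, 0.00375 for TCF4 and 0.00709 for SNAI3. ZEB1 overlapped between the lines, at 25.7 to 30.3 CPM in CAG and 28.0 to 33.2 CPM in PGK, and was not called. Whether the repressors' levels bear on CDH1 was not tested.

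Regulators of epithelia were mostly near or below detection. Of 12 genes 3 were tested and 2 were called, both higher, with a median of 0.25, beside 31.6% of all tested genes called higher. KLF5, a zinc finger factor of epithelia, had 40.7, 42.8 and 44.7 CPM in CAG and 27.6, 27.9 and 26.5 CPM in PGK. GRHL1, a grainyhead factor, rose by 0.25 (SE 0.10), a call that was lost without CAG replicate 1 (0.24), CAG replicate 3 (0.24) or PGK replicate 3 (0.17). KLF4, also tested, was not called, at -0.09 (SE 0.13), and its CPM values overlapped. GRHL3, untested, pointed to a lower level in CAG, with 20 counts there and 29 in PGK. With a ratio of 0.656 and a counting interval from 0.352 to 1.2, the direction of GRHL3 is unsettled. OVOL2, a zinc finger factor of epithelia chosen after its value was seen, was not tested. It had 13, 19 and 10 counts in CAG, against 4, 0 and 1 counts in PGK. Its CAG to PGK ratio was 7.99 (counting interval 3.16 to 25.9), and it shares exons with SNX5 on its own strand. GRHL2, a known activator of CDH1 in epithelia, had 1 count in CAG and 0 in PGK, and the epithelial splicing factor ESRP1 had 2 counts in CAG and 0 in PGK. The Benjamini-Hochberg adjusted p of the edgeR test was 4.36e-08 for KLF5 and 0.0291 for GRHL1.

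Of 9 partners of EPCAM 5 passed the filter, with 4 called higher and 0 lower and a median of 1.28, CD44 included. Of all tested genes 31.6% were called higher and 30.4% lower, and 5 genes are too few to read a shared direction from. CD44 is among the 4 and passed the filter through its CAG libraries alone, so that its direction was set by the filter. Nothing is read from the p-value of CD44. With a filter of 1 CPM in 3 libraries CD44 was not tested and 3 were called. SPINT2, a membrane inhibitor of the protease matriptase, had 37.3, 35.1 and 36.5 CPM in CAG and 6.33, 6.07 and 5.13 CPM in PGK. The lines were far apart, with a log2 fold change of 2.64 (SE 0.08). SPINT1, the related inhibitor, rose by 1.28 (SE 0.19). CD9 and CD44, chosen after their values were seen, rose by 0.53 (SE 0.08) and 3.40 (SE 0.55). CD44 had 48 counts in CAG and 4 in PGK, and its log2 fold change was 4.6 without PGK replicate 3. SPINT2 shares exons with another gene model on its strand and is uncertain. CLDN7, a claudin that binds EPCAM, had 19 counts in CAG and 5 in PGK and was not tested. The edgeR test gave a Benjamini-Hochberg adjusted p of 9.10e-15 for SPINT2, 9.02e-06 for SPINT1, 1.13e-05 for CD9 and 3.05e-05 for CD44.

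Proteases that mature or cut cadherins and EPCAM were listed together with the other subunits of gamma-secretase. All 15 genes were tested, with 6 called higher and 2 lower and a median of -0.03. With DESeq2 or without a low-count filter, 4 were called higher and 2 lower. PSEN2, a catalytic subunit of gamma-secretase, rose by 0.89 (SE 0.07) and PCSK6, a proprotein convertase, by 0.75 (SE 0.05). ADAM15, a metalloprotease, fell by 0.45 (SE 0.06), and ADAM10, which sheds CDH1 and CDH2, fell by 0.20 (SE 0.06). ADAM15 overlaps DCST1 on its own strand and PCSK6 an unnamed gene model on its own, so both are uncertain. Mesenchymal markers beside CDH2 were called higher in 2 and lower in 1 of 5 tested genes, with a median of 0.08. The shares over all tested genes were 31.6% higher and 30.4% lower, for this list and for the proteases. VIM, or vimentin, had 642, 634 and 618 CPM in CAG and 458, 452 and 456 CPM in PGK, COL1A1 rose by 0.20 (SE 0.07), and MMP2, which overlaps an unnamed gene model on its strand, fell by 0.65 (SE 0.17). For these 7 genes the edgeR quasi-likelihood p, Benjamini-Hochberg adjusted, ran between 8.93e-10 for PCSK6 and 0.0137 for COL1A1.

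**Figure D4:**
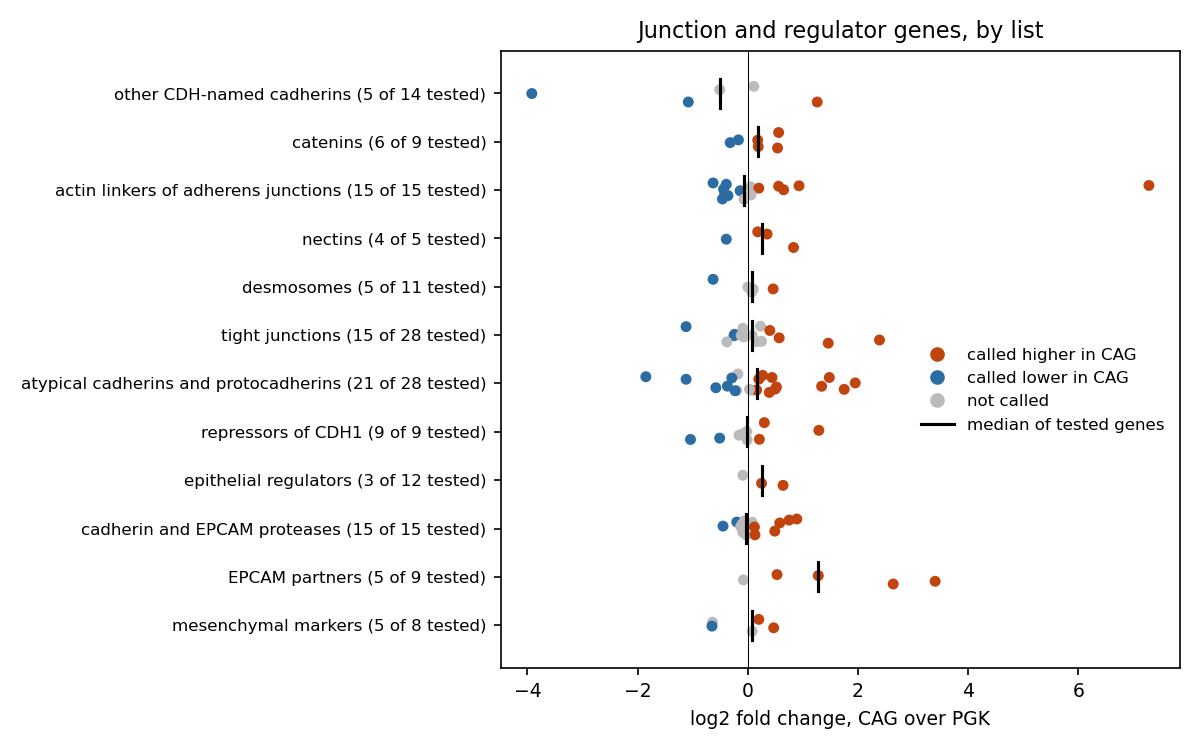
The log2 fold change of CAG over PGK (x axis) of tested genes in 12 lists of junction and regulator genes, with called genes coloured by direction and a bar at the median of each list. Most lists have called genes on both sides of 0, and the EPCAM partners have a median of 1.28 over 5 tested genes, CD44 included. Of all tested genes 31.6% were called higher and 30.4% lower.

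CDH11 was compared with all other tested genes for likeness of pattern, by the root mean square difference of log2 CPM over the 6 libraries after each gene was centred on its mean. The 5 nearest genes were FAM84A, ZNF726, FAM84B, TRIM58 and MFAP2, with differences of 0.22 to 0.43. FAM84A, the nearest, averaged 0.127 CPM in CAG and 5.81 CPM in PGK. FAM84B was expressed far more, at 6.98 CPM in CAG and 211 CPM in PGK. All 5 lie on other chromosomes than CDH11, and the measure rests mainly on the gap between the lines.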

How the data were processed

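The authors deposited whole-number read counts per Ensembl gene for 6 libraries, not normalized and not pooled. The submitters' processing notes list featureCounts 2.0.3, HISAT2 2.2.1, Bowtie2 2.5.1 and cutadapt 4.6, and the build hg19. Their roles and settings, strand and multi-mapped reads included, and the gene annotation are not given in the sources used. Libraries were directional, per the labels' protocols, but without a stated counting strand reads of a gene and an antisense partner cannot be told apart. This touches CDH1, CDH2, CDH3, CDH6 and CDH13, which overlap gene models on the other strand. Other named genes with such an overlap are ADAM10, CD44, CDH8, CDH23, CLDN7, CTNNA2, DCHS1, DSG2, GRHL2, LPP, NECTIN1 and NECTIN2. PAX8, PCSK6, PLEKHA7, SNAI3, SORBS2, SPINT1, TCF4, VIM, WT1, ZEB1 and ZEB2 have such an overlap as well.

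GENCODE 29, built on GRCh38, gave symbols for 19346 of 20169 identifiers, gene order and exon lengths; no coordinates are given. Columns left unused numbered 0. Genes were filtered with filterByExpr, scaled by TMM and tested with edgeR 4.0.16 (R 4.3.3; robust quasi-likelihood test, two-sided, Benjamini-Hochberg over 13103 genes, adjusted p under 0.05). SEs were derived from the fold change and the F statistic. Genes under the filter have folds from the unfiltered fit. Counting intervals are exact binomial (95%). Alternatives were no filter, 1 CPM in 3 libraries, RLE, library size only, DESeq2 1.42.0, limma-voom (limma 3.58.1), a replicate block, testing against a fold of 1.5, each library left out, longest-transcript lengths and 10 neighbours on each side. The code was tested on simulated data. The genes described and the lists were chosen with earlier results of these data known; named from each list are the called genes with the largest change, up to 2 per direction, that average 1 CPM or more in 1 of the lines, and others are named as chosen after their values were seen or to show a marker's level. No sequences are printed. A few genes that the rule or the lists hold are not reported here.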

Additional observations from a re-analysis of the deposited data

How the results depend on the processing

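Counts of calls over all genes ran between 7326 and 8861 over the alternatives, apart from the test against a fold of 1.5, which called 1512 genes. Under that test the counts were 0 for catenins, 2 for actin linkers, 1 for nectins, 0 for desmosomes, 2 for tight junctions, 5 for atypical cadherins and protocadherins, 1 for repressors of CDH1, 0 for epithelial regulators, 2 for proteases, 0 for mesenchymal markers and 3 for the cadherins and EPCAM themselves. DESeq2 called 1 epithelial regulator. With 1 library left out, calls ran between 3 and 5 for the other CDH genes and between 1 and 3 for epithelial regulators. The log2 fold changes of CDH1 (1.98 to 2.08), CDH2 (0.14 to 0.25), CDH10 (-1.07 to -0.60), CDH11 (-5.86 to -4.95), CDH24 (-0.70 to -0.59) and EPCAM (4.47 to 7.67) kept their sign in every alternative that tested them; CDH10 and EPCAM were not tested with 1 CPM in 3 libraries. Of 42 other genes followed, 16 kept their call in every alternative that tested them (CD44, CLDN23 and SNAI3 were not tested with 1 CPM in 3 libraries) and 25 lost it in the test against a fold of 1.5 alone. Same-numbered libraries of the lines had correlations of deviations of 0.108, 0.103 and 0.0131, and every library correlated best with its own number. The main fit did not take the numbers as pairs, and whether they mark anything shared was not tested. A replicate block gave 8861 calls over all genes, against 8125 in the main fit. The 4 genes under the filter have too few counts for small differences to be detectable at this depth.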
